A study of Mus musculus with 6 samples.

Results

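The genes described here are 10 members of the fibroblast growth factor (FGF) pathway. They comprise the receptors Fgfr1, Fgfr2 and Fgfr3, the receptor-like gene Fgfrl1, the ligand Fgf2, the Sprouty genes Spry1, Spry2 and Spry4, the phosphatase Dusp6 and the transcription factor Etv5. They were taken by name from a table of read counts for 55401 mouse genes, and all 10 were found. All 10 also passed the filter on low counts, as did 16260 genes in all. RNA came from knee articular cartilage of mice in 2 groups of 3 libraries, and the labels give the cell type as native articular chondrocytes. One group was the adseverin knockout (libraries cKO 1 to cKO 3) and the other was wild type (libraries WT 1 to WT 3, called CTRL by the submitters). Mice of both groups were 10 weeks old and had been given tamoxifen on 5 days in a row from 8 weeks of age, each dose being 1.5 mg for every 10 g of body weight. The sources used here name neither the Cre driver nor the deleted exons, nor do they say whether each library is a separate mouse. The p-values therefore measure the spread between libraries, which may be partly technical.

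FGF ligands bind receptor tyrosine kinases at the cell surface together with heparan sulfate, and the activated receptor passes its signal through adaptors to RAS, RAF, MEK and ERK. ERK signalling switches on genes that then restrain it: Sprouty proteins act upstream of ERK, Dusp6 removes phosphate from ERK, and Etv5 is an ETS transcription factor induced by the pathway. In cartilage, Fgfr3 is known as a brake on the proliferation of growth plate chondrocytes, and activating mutations of the human gene cause achondroplasia. Fgf2 is stored in the pericellular matrix of articular cartilage, and Fgfr1 has been linked to matrix breakdown in mouse joints.

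Scin, which encodes adseverin, measured 39.1, 29.9 and 29.4 CPM in the cKO libraries, against 186, 185 and 219 CPM in the WT libraries, so every library matched its genotype label. CPM are read counts scaled to library size with TMM factors. Library totals ran from 22664828 to 31014996 reads, and the 10 genes held 170 to 14480 reads in a library. The chondrocyte markers Col2a1, Acan, Sox9, Comp and Hapln1 were abundant in all libraries. Of the same list, Matn3 was low, at 2.45 to 8.56 CPM, as was Matn1, at 1.75 to 3.94 CPM. Genes used as markers of other cell types were also detected. The 8 osteoblast and osteocyte markers summed to 38384 to 39994 CPM in cKO and 32852 to 39311 CPM in WT. Most of this sum was 1 gene, Ibsp, at 24365 to 30048 CPM in cKO and 23181 to 25513 CPM in WT. Muscle markers summed to 1313 CPM in WT 2 and to 24.1 to 221 CPM in the remaining libraries. In bulk RNA, fewer cells of a type and less RNA per cell cannot be told apart.

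None of the 10 genes passed the test between genotypes, and Fgfr3 and Etv5 had the largest fitted differences, in opposite directions. With edgeR's quasi-likelihood test and Benjamini-Hochberg adjustment over all 16260 genes, 0 of 10 had an adjusted p under 0.05, where 0.00615% of all genes were called (Scin alone). DESeq2 and limma-voom also called 0 of 10, against 82 of 18509 genes with DESeq2 and 1 of 16260 with limma-voom. At an unadjusted p under 0.05 there was 1 of the 10 (Fgfr3) with edgeR, 1 with DESeq2 and 2 with limma-voom. With edgeR 6.5% of all genes were under it, and 3.54% were under it and higher in cKO. DESeq2 put 1377 of 28474 genes under it, and limma-voom 1166 of 16260. The cKO and WT values did not overlap for 1 of 10 genes, again Fgfr3, against 12.3% of all genes, of which 6.41% were higher in cKO. The edgeR and overlap shares of the 10 genes are near the background. Log2 fold changes of the 10 genes (cKO over WT) were above 0 for 5 and below 0 for 5, with a median of -0.01, and the median over all genes tested was 0.00.

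The sequences before the transcription starts of Fgfr3 and Etv5 are shown because these 2 genes differed most between the genotypes, and that of Dusp6 because it is the ERK feedback gene whose level varied least between libraries of a group. Each is the 250 bases before the RefSeq start (build GRCm38.p6), 5′ to 3′ in the direction of the gene. The GENCODE M21 gene starts farther upstream, at 33721674 for Fgfr3 and at 22439719 for Etv5. Part of the windows of Fgfr3 and Etv5 therefore lies inside the annotated gene. Capitals mark the GC box GGGCGG on either strand (CCGCCC on the other), the letters bound by Sp1-type factors.
Fgfr3, chr5:33721474-33721723, + strand: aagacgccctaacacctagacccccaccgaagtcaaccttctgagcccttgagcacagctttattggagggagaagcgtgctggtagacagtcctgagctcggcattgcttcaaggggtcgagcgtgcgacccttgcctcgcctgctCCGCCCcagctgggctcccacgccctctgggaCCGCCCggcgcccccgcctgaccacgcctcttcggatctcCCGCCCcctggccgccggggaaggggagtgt
Etv5, chr16:22439571-22439820, - strand: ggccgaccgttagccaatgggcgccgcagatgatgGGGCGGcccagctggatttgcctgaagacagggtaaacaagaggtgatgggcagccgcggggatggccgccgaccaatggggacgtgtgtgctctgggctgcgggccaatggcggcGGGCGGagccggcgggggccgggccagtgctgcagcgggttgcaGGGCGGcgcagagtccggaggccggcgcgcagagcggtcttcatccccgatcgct
Dusp6, chr10:99262981-99263230, + strand: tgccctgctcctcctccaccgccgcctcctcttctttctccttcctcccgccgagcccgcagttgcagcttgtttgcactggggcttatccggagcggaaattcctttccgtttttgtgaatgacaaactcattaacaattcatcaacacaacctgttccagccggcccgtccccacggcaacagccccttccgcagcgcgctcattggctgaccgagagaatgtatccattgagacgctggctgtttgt
The RefSeq table holds 8 of the 10 genes, and the GC box occurred 3 times before Fgfr3, 3 times before Etv5 and 0 times before Dusp6. It occurred most often, 4 times, before Fgfrl1, whose fold between genotypes was 1.09, and 1 time each before Fgf2 and Spry1. It was present before 5 of the 8 genes (Fgfr3, Fgfrl1, Fgf2, Spry1 and Etv5), and 32.7% of 32851 promoters of the same length hold it; 8.47% hold 3 or more. The ETS letters CCGGAA, searched on both strands, occurred before 1 of the 8, Fgfrl1, and in 12% of all promoters. The TATA box letters TATAAA, on either strand, occurred before 0 of the 8 and in 12.4% of all promoters. These matches describe the letters of these windows and are no measure of binding.

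**Figure D1:**
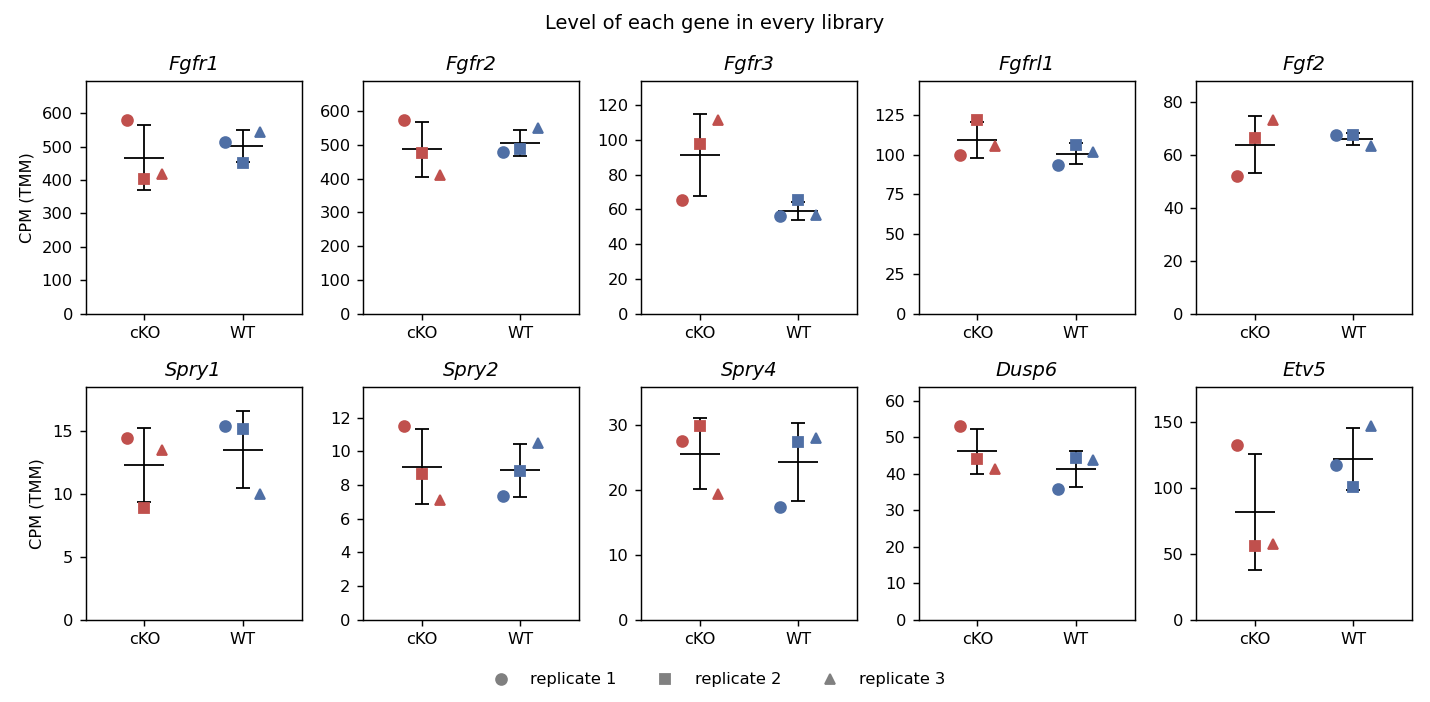
CPM of each of the 10 genes in the 3 cKO and 3 WT libraries (points, marker shape by replicate number), with the group mean and SD as black bars. Fgfr3 lies between 65.6 and 111.7 CPM in cKO and between 56.1 and 65.3 CPM in WT, and Etv5 is low in cKO 2 and cKO 3 and not in cKO 1.

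Among the kinase receptors, Fgfr1 and Fgfr2 were the abundant ones and Fgfr3 the scarce one. Levels between genes were compared in TPM, which divides reads by the exon length of the GENCODE M21 annotation. Fgfr1 averaged 144 ± 31.1 TPM in cKO and 157 ± 16.1 TPM in WT, and Fgfr2 averaged 144 ± 24.6 TPM in cKO and 151 ± 9.63 TPM in WT (SD, n = 3 each). These 2 genes did not differ beyond their spread, since Fgfr1 was the higher in 4 of 6 libraries. Fgfrl1, which binds FGF ligands but lacks the tyrosine kinase domain, came next at 120 ± 11.1 TPM in cKO and 111 ± 4.61 TPM in WT, below Fgfr2 and above Etv5 in 6 of 6 libraries each. Fgfr3 stood far lower at 39 ± 10.1 TPM in cKO and 25.5 ± 1.91 TPM in WT.

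The order below the abundant receptors was Etv5, Dusp6, Fgfr3, Fgf2, Spry4, Spry1 and Spry2. Etv5 exceeded Dusp6 in 5 of 6 libraries, Dusp6 exceeded Fgfr3 in 5 of 6, and Fgfr3 exceeded Fgf2 in 3 of 6, so these neighbours overlapped. Fgf2 lay above Spry4 with no overlap of the 6 values, at 23.5 to 33.1 TPM against 11.6 to 18.9 TPM. Among the Sprouty genes, with means over all libraries of 16 TPM for Spry4, 13.6 TPM for Spry1 and 13.2 TPM for Spry2, Spry4 exceeded Spry2 in 6 of 6 libraries. Spry4 exceeded Spry1 in 4 of 6 libraries and Spry1 exceeded Spry2 in 3 of 6. The annotated Fgfr2 gene reaches from 130162451 to 133123350 on chromosome 7 and shares 3.04% of its exon bases with Ctbp2, which may alter its length and its counts.

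Fgfr3 measured 65.6, 97.7 and 111.7 CPM in the cKO libraries, against 56.1, 65.3 and 56.7 CPM in the WT libraries. Replicates 2 and 3 of cKO lay well above every WT library, and replicate 1 lay beside WT 2. Fgfr3 is ENSMUSG00000054252, on chromosome 5 from 33721674 to 33737068 (GRCm38, + strand). The means were 91.6 ± 23.6 CPM in cKO and 59.4 ± 5.15 CPM in WT (SD, n = 3 each). The log2 fold change was 0.63 ± 0.18 (SE), a fold of 1.54 with a 95% interval of 1.15 to 2.06 (edgeR quasi-likelihood test, unadjusted p = 0.00847, adjusted p = 0.658). Its p ranked 196 among the 16260 genes. Fgfr3 shares 998 exon bases, 13.94% of its exons, with G630022F23Rik on the opposite strand, which held 0 to 6 reads per library.

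The gap between the groups rested on 1 library pair that cannot be ordered. Fgfr3 in cKO 1 (1481 reads) had an exact Poisson interval of 62.3 to 69 CPM and in WT 2 (1489 reads) of 62.1 to 68.7 CPM, covering counting error only. With median-of-ratios scaling cKO 1 (1654 normalized reads) fell just under WT 2 (1658), so the groups then overlapped. Leaving out single libraries kept the log2 fold change above 0, between 0.46 without cKO 3 and 0.82 without cKO 1.

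Several marker lists lay mostly on one side of 0. Of 10 chondrocyte markers, 9 had a log2 fold change above 0 (median 0.24), and their summed level was 29123 to 35518 CPM in cKO against 27212 to 28237 CPM in WT, with 0 of 10 at 0 reads in any library. Col2a1 alone gave 15914 to 20596 CPM of the sum in cKO and 14452 to 15301 CPM in WT. The exception was Acan, the cartilage proteoglycan aggrecan, named after its values were seen. Acan measured 708, 949 and 989 CPM in cKO and 1273, 1322 and 1440 CPM in WT. All cKO libraries lay below all WT libraries, and the log2 fold change was -0.61 ± 0.13 (SE; edgeR adjusted p = 0.535). The sum was highest in cKO 2, whereas Fgfr3 was highest in cKO 3. Of 9 fibroblast markers, 0 lay above 0 (median -0.33), and they summed to 7634 to 10360 CPM in cKO and 9293 to 11536 CPM in WT. Dcn alone gave 6314 to 7984 CPM of that sum in cKO and 6885 to 8766 CPM in WT. Of 8 macrophage markers, 0 lay above 0 (median -0.31), with sums of 486 to 668 CPM in cKO and 631 to 850 CPM in WT. Erythroid markers lay above 0 in 6 of 6 (median 0.31), with sums of 2287 to 3409 CPM in cKO and 2147 to 2473 CPM in WT. Neutrophil markers lay above 0 in 6 of 7 (median 0.37), with sums of 1253 to 2628 CPM in cKO and 1053 to 1896 CPM in WT. Of the 8 osteoblast and osteocyte markers, 6 lay above 0 (median 0.24). No marker of these 6 lists was at 0 in any library. Muscle markers lay above 0 in 0 of 6 (median -1.45), adipocyte markers in 0 of 5 (median -1.27) and osteoclast markers in 0 of 6 (median -0.23). Pericyte and endothelial markers lay above 0 in 2 of 7 each (medians -0.31 and -0.29). Superficial zone markers, 2 of 5 above 0, summed to 27058 to 28513 CPM in cKO and 29536 to 34200 CPM in WT. Cilp alone gave 18570 to 20331 CPM of this sum in cKO and 19902 to 23890 CPM in WT. The part of these cell types in the Fgfr3 difference was not tested.

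The other receptors showed smaller fitted differences. Fgfr1 measured 580, 404 and 417 CPM in cKO, against 514, 450 and 545 CPM in WT. Fgfr2 measured 575, 476 and 411 CPM in cKO, against 479, 487 and 550 CPM in WT. For both genes cKO 1 was the highest of the 6 libraries, and the groups overlapped. The fold of Fgfr1 was 0.93 with a 95% interval of 0.74 to 1.17, and that of Fgfr2 was 0.96 with an interval of 0.79 to 1.18. Fgfrl1 measured 100.1, 122 and 106 CPM in cKO and 93.5, 106 and 102 CPM in WT, a fold of 1.09 with an interval of 0.92 to 1.28. These intervals leave out a change of 1.5-fold either way for all 3 genes.

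The share of Fgfr3 among the receptor transcripts varied more within cKO than within WT. Fgfr3 made up 5.74%, 9.44% and 11.5% of the summed TPM of the 4 receptor genes in cKO, against 5.6%, 6.51% and 5.18% in WT. Fgfr1 made up 32.1 ± 4.33% in cKO and 35.3 ± 2.43% in WT (SD, n = 3 each). The ratio of Fgfr3 to Fgfr1 reads, which does not depend on scaling between libraries, was 0.113, 0.242 and 0.268 in cKO and 0.109, 0.145 and 0.104 in WT. The ratio was again high in cKO 2 and cKO 3, with cKO 1 inside the WT range. On the log2 scale the ratio averaged -2.37 ± 0.68 in cKO and -3.08 ± 0.26 in WT (SD, n = 3 each), a difference of 0.72. No p is given for it, and an exact permutation test of 3 against 3 libraries cannot go below 0.1. The difference was 1.11 without cKO 1 and 0.48 without cKO 3.

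The ligand Fgf2 measured 52, 66.2 and 73.2 CPM in cKO, against 67.3, 67.4 and 63.3 CPM in WT. The WT libraries lay close together and the cKO libraries lay on both sides of them. The fold was 0.97 with a 95% interval of 0.78 to 1.19. Fgf2 shares 640 exon bases, 9.44% of its exons, with Nudt6 on the opposite strand. The library kit does not mark strand, so reads there cannot be told apart, and Nudt6 itself held 59 to 130 reads per library. The same limit applies to the opposite-strand overlaps of Fgfr3 and Spry1.

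**Figure D2:**
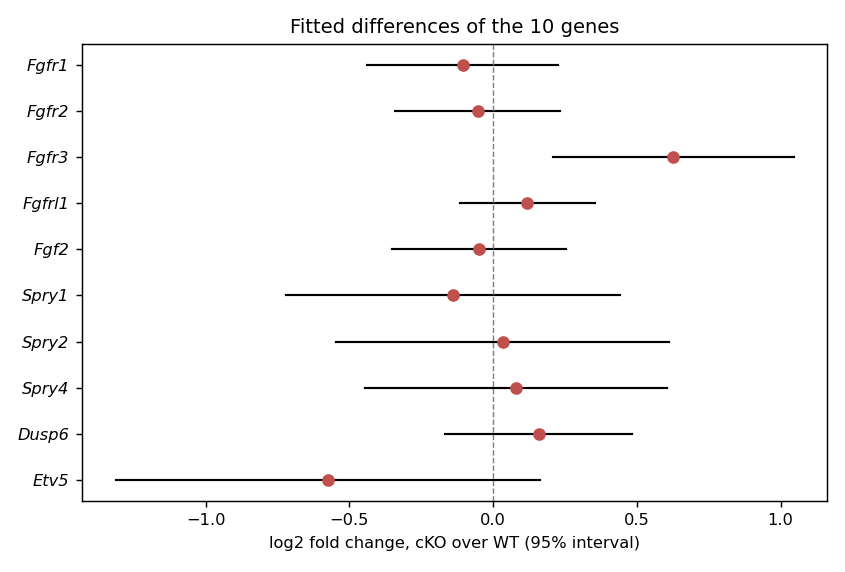
Log2 fold change of each gene, cKO over WT, from the edgeR fit on all 6 libraries (points) with its 95% interval (lines), not adjusted for the number of genes. The interval of Fgfr3, 0.21 to 1.05, lies above 0, and the intervals of the other 9 genes include 0.

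The Sprouty genes, inhibitors of receptor signalling to RAS and ERK, were low and did not pass the test. Spry1 measured 14.4, 8.92 and 13.5 CPM in cKO, against 15.4, 15.1 and 9.99 CPM in WT. It shares 710 exon bases, 24.43% of its exons, with Gm42922 on the opposite strand, which held 0 to 4 reads per library. Spry2 measured 11.5, 8.66 and 7.12 CPM in cKO, against 7.33, 8.82 and 10.5 CPM in WT. Spry4 measured 27.5, 29.8 and 19.4 CPM in cKO, against 17.3, 27.3 and 28 CPM in WT. In each of the 3 genes the cKO and WT libraries were interleaved. The folds were 0.91 for Spry1, 1.02 for Spry2 and 1.06 for Spry4. Their 95% intervals, 0.61 to 1.36, 0.69 to 1.53 and 0.73 to 1.52, are wider on the log2 scale than those of the receptors. Opposite directions were seen with single libraries left out, from -0.32 to 0.048 for Spry1, -0.17 to 0.18 for Spry2 and -0.12 to 0.25 for Spry4 on the log2 scale.

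Dusp6, the cytoplasmic phosphatase of ERK, measured 53.1, 43.9 and 41.3 CPM in cKO, against 35.7, 44.4 and 43.7 CPM in WT. One library of each group, cKO 1 at the top and WT 1 at the bottom, set its range. The fold was 1.12 with a 95% interval of 0.89 to 1.40.

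Etv5 measured 132, 55.8 and 57.3 CPM in the cKO libraries, against 117, 101 and 147 CPM in the WT libraries. In cKO 2 and cKO 3 it lay below every WT library, and in cKO 1 it lay inside the WT range, so the groups overlapped. Etv5 is ENSMUSG00000013089, on chromosome 16 from 22381309 to 22439719 (GRCm38, - strand). The means were 81.8 ± 43.8 CPM in cKO and 122 ± 23.3 CPM in WT (SD, n = 3 each). The log2 fold change was -0.57 ± 0.32 (SE), with a 95% interval of -1.31 to 0.16 (edgeR quasi-likelihood test, unadjusted p = 0.11, adjusted p = 0.83). Without cKO 1 it was -1.11 ± 0.17 (adjusted p = 0.193), and without cKO 2 it was -0.36. Pdgfra, one of the 9 fibroblast markers and named after its values were seen, measured 193, 115 and 118 CPM in cKO and 189, 163 and 244 CPM in WT. The sum of the 9 markers was lowest in cKO 1 (7634 CPM), where Dcn alone gave 6314 CPM of it. The part of fibroblasts in the Etv5 difference was not tested. The ratio of Etv5 to Dusp6 reads, both ERK-induced genes, was 2.49, 1.27 and 1.39 in cKO and 3.28, 2.28 and 3.36 in WT.

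**Figure D3:**
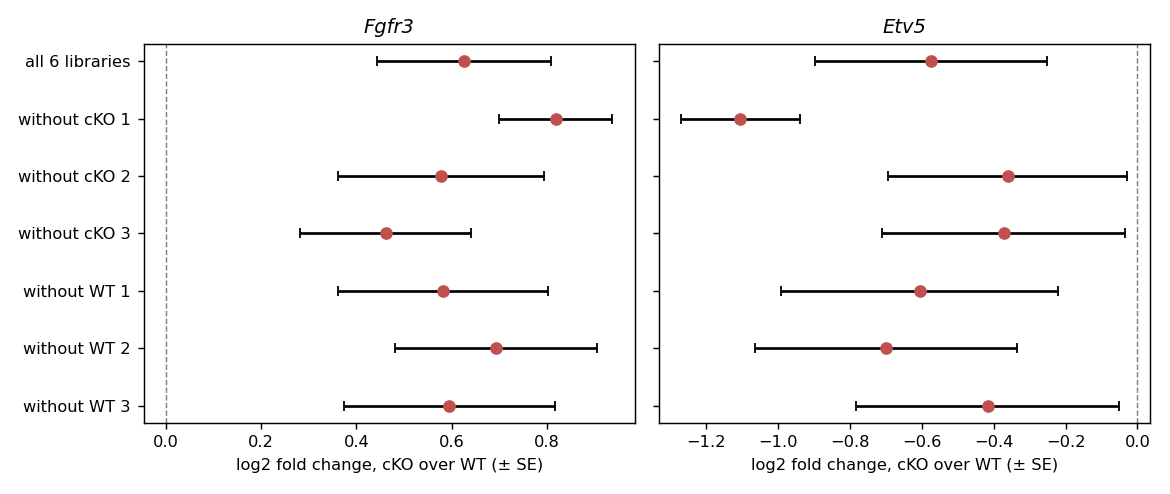
Log2 fold change of Fgfr3 (left) and Etv5 (right), cKO over WT, with all 6 libraries and with each library left out (points) and its SE (lines). Both values are farthest from 0 without cKO 1, at 0.82 for Fgfr3 and -1.11 for Etv5.

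Library cKO 1 stood apart from the other cKO libraries in several of the 10 genes. It was the highest of the 6 libraries for 4 genes (Fgfr1, Fgfr2, Spry2 and Dusp6), where 16.2% of all genes tested were highest in it. It was the lowest for 1 gene, Fgf2. Library WT 1 was the lowest for 4 genes (Fgfr3, Fgfrl1, Spry4 and Dusp6), where 14.6% of all genes were lowest in it. For 9 of the 10 genes the coefficient of variation was larger in cKO than in WT, Spry4 being the exception, where 49.5% of all genes had the larger one in cKO. The 10 genes share these libraries, so the counts are descriptions. Expression of Scin was low in cKO 1, at 39.1 CPM, as in the other cKO libraries.

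Likeness of profiles was measured as the root mean square difference of log2 CPM over the 6 libraries, each gene centred on its own mean. Fgfr1 and Fgfr2 were nearest to each other (0.11), Spry2 was nearest to Fgfr2 (0.12) and Dusp6 was nearest to Spry2 (0.14). Spry4 was also nearest to Spry2 (0.19). Fgfr3, Spry1 and Etv5 had no close neighbour among the 10 genes. The nearest to Fgfr3 was Fgfrl1 (0.31), and Fgfr1 was nearest to Spry1 (0.31) and to Etv5 (0.38). Among 8986 genes with a mean of at least 10 CPM, the 5 with the profile most like Fgfr3 were Ctbs (0.11), a lysosomal glycosidase, Dkk1 (0.11), Hlf (0.12), Parp11 (0.13), an ADP-ribosyltransferase, and Cbx7 (0.15), a Polycomb protein. These 5 genes were picked for this likeness, so their higher values in cKO follow from the choice and are no separate result. Dkk1 is a secreted Wnt inhibitor and measured 85.5, 108 and 132 CPM in cKO and 72.3, 68.8 and 67.5 CPM in WT. Hlf, a transcription factor with circadian output functions, measured 10.7, 18.2 and 20.7 CPM in cKO and 10.4, 10.8 and 8.51 CPM in WT.

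**Figure D4:**
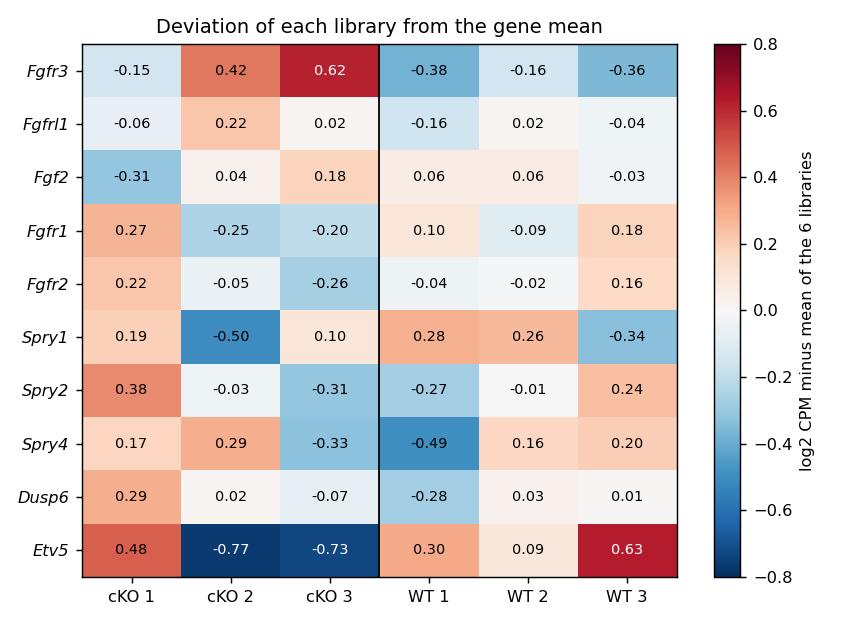
Log2 CPM of each gene in each library minus its mean over the 6 libraries (colour and printed value), cKO libraries on the left and WT libraries on the right. Fgfr3 and Etv5 have opposite signs in cKO 2 and cKO 3, at 0.42 and 0.62 for Fgfr3 and -0.77 and -0.73 for Etv5.

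The rest of the pathway was described with 6 lists of 102 genes, of which 101 were in the table and 80 passed the filter. Of these 80 genes, 0 were called by edgeR at an adjusted p under 0.05. At an unadjusted p under 0.05, 7 lay above 0 and 5 below, where 6.5% of all genes were under it. The groups did not overlap for 10 of the 80, against 12.3% of all genes, so single genes without overlap below are to be read against that share. In all, 40 of the log2 fold changes were above 0 and 40 below. All genes named from here on had an adjusted p above the threshold and are given as values.

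Genes linked to FGFR3 signalling in growth plate chondrocytes held 4 of those 7 higher genes among 12 tested, where 3.54% of all genes were higher at that p, and their median was 0.07. Ihh, the Hedgehog ligand of prehypertrophic chondrocytes, measured 143, 176 and 166 CPM in cKO and 129, 91.3 and 113 CPM in WT. All 3 cKO libraries lay above the WT libraries, cKO 1 included (log2 fold change 0.54 ± 0.14). Npr3, the clearance receptor of natriuretic peptides, measured 11.6, 10 and 12.3 CPM in cKO and 8.82, 5.13 and 4.29 CPM in WT. Prkg2, a kinase downstream of C-type natriuretic peptide, which counters FGFR3 in growth cartilage, measured 76.7, 85.5 and 77.9 CPM in cKO and 65.6, 43.3 and 67.5 CPM in WT. Neither gene overlapped between groups. Snai2, the fourth gene, was at 0.36 ± 0.15 on the log2 scale.

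Of 26 other ligands, binding proteins and co-receptors, 10 passed the filter. Fgfr4, the remaining kinase receptor, and the klotho genes Kl and Klb did not. Fgf1, a ligand of all FGF receptors, measured 57.8, 39.1 and 48.1 CPM in cKO and 27.8, 39.9 and 32.3 CPM in WT, overlapping through cKO 2 and WT 2. Fgf18, the ligand with anabolic action in cartilage, averaged 16.4 ± 2.01 CPM in cKO and 20.7 ± 4.42 CPM in WT. Fgf13, a member that acts inside the cell, averaged 1.22 ± 0.11 CPM in cKO and 3.11 ± 1.55 CPM in WT.

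Heparan sulfate proteoglycans and sulfatases had a median of -0.05 over 11 genes. Sdc1, a cell surface proteoglycan, measured 95.9, 79 and 64.8 CPM in cKO, against 125, 103 and 118 CPM in WT. All 3 cKO libraries lay below the WT libraries (log2 fold change -0.53 ± 0.15). Gpc4, a glypican, was at -0.28 ± 0.13 and the sulfatase Sulf2 at 0.23 ± 0.12 on the log2 scale.

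Signal carriers between receptor and ERK centred on 0, with medians of 0.01 over 13 adaptors and 0.01 over 13 genes of the RAS, RAF, MEK and ERK list. Braf, a RAF kinase, measured 218, 188 and 189 CPM in cKO, against 165, 158 and 162 CPM in WT. The groups did not overlap, and the log2 fold change was 0.29 ± 0.09. Map2k1, which encodes the kinase MEK1, was at -0.18 ± 0.13 on the log2 scale. Of the adaptors, Plcg1 was at 0.39 ± 0.15, Grb2 at -0.20 ± 0.10 and Frs3 at -0.70 ± 0.29, the last with a mean of 5.04 CPM in cKO and 8.19 CPM in WT.

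Other ERK feedback inhibitors and targets had a median of -0.14 over 21 genes, with 7 above 0 and 14 below. Dusp4, a nuclear phosphatase, averaged 0.47 ± 0.39 CPM in cKO and 2.53 ± 1.44 CPM in WT, a level too low to weigh in any single library. Dusp1, a nuclear phosphatase that is also an immediate early gene, measured 841, 683 and 648 CPM in cKO and 785, 1140 and 914 CPM in WT. Spsb1, which encodes a SOCS box protein, was at 0.33 ± 0.17 on the log2 scale.

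**Figure D5:**
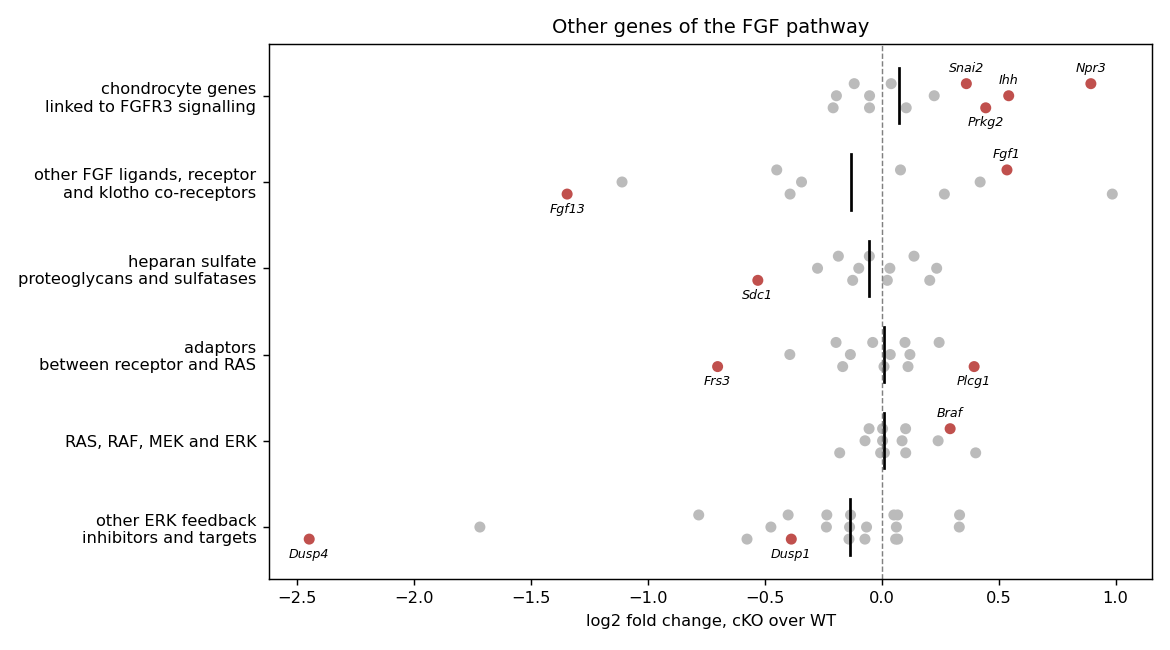
Log2 fold change, cKO over WT, of the 80 other pathway genes tested, by list, with list medians as black bars. Red points with names had an unadjusted p under 0.05 (7 higher, 5 lower), and 0 of the 80 had an adjusted p under 0.05.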

How the data were processed

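The deposited table holds raw read counts per Ensembl gene. Per the submitters' processing notes, the build was GRCm38, and the tools were HISAT2 2.2.1 and featureCounts 2.0.1, beside FastQC 0.11.9, DESeq2 1.30.1 and R 4.0.5. Annotation release, strand and multi-mapping settings: not given in the sources used here. Libraries were made with a full-length cDNA kit for very low RNA input, per the labels' protocols. A second table, of normalized values, was not used. Symbols and exon lengths came from GENCODE M21 (55141 identifiers matched). Counts were filtered with filterByExpr, TMM-normalised and tested with edgeR 4.0.16 (glmQLFit, glmQLFTest, group only, 4 residual degrees of freedom) in R 4.3.3, with Benjamini-Hochberg adjustment over 16260 genes. The SE is the log2 fold change divided by the square root of F, and 95% intervals use the fit's degrees of freedom. Replicate pairs differed beyond counting noise (chi-square per degree of freedom 31.4 to 36.5). Log2 CPM for profiles used a prior count of 2, and the read ratios a pseudocount of 0.5. The script was tested on simulated data. The 10 genes, the lists and the tests were chosen with earlier results of these data known. Named from each pathway list were called genes, otherwise the 3 with the smallest p, of which 1 gene is not reported here; Snai2, Fgfr4, Kl, Klb, Pdgfra and the 5 chondrocyte markers were named after their values were seen. Alternatives were DESeq2 1.42.0, limma-voom (limma 3.58.1), other factors, other filters, the replicate number as a block and leaving out libraries.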

Additional observations from a re-analysis of the deposited data

How the results depend on the processing

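In 14 alternatives per gene, 0 of the 10 genes had an adjusted p under 0.05. Fgfr3 stayed above 0 (0.46 to 0.82) with an unadjusted p of 2.04e-04 to 0.036 and an adjusted p of 0.111 to 0.909. Etv5, Fgfr1, Fgfrl1 and Dusp6 also kept their direction; Etv5 ranged from -1.11 to -0.36. Over all genes, 1 was called by edgeR, 82 by DESeq2, 3 with no filter on low counts, 1 to 2 with single libraries left out (2 without WT 3) and 0 without WT 2 and cKO 3 together. At an unadjusted p under 0.05 there were 2 of the 10 genes with limma-voom and 2 with no filter (Fgfr3 and Etv5 in each), and 1 to 3 with single libraries left out, the 3 without cKO 1 being Fgfr1, Fgfr3 and Etv5. Over all genes, 1166 of 16260 were under it with limma-voom, 1650 of 28474 with no filter and 1199 of 17236 without cKO 1. Directions turned with single libraries left out for Fgfr2 (-0.19 to 0.057), Fgf2 (-0.16 to 0.079), Spry1 (-0.32 to 0.048), Spry2 (-0.17 to 0.18) and Spry4 (-0.12 to 0.25), and for Fgfr2 without WT 2 and cKO 3 together (0.026). The median of the 10 genes ranged from -0.07 to 0.10. The difference between cKO and WT in the log2 ratio of Fgfr3 to Fgfr1 ranged from 0.48 to 1.11. No strong pairing by replicate number was seen. Deviations of same-numbered libraries correlated at -0.02, 0.07 and 0.02, and those of differently numbered libraries at -0.07 to 0.05. With 3 libraries in a group, these values cannot exclude a weak pairing. With the number as a block edgeR called 1 gene and 0 of the 10, with Fgfr3 at 0.59 and Etv5 at -0.68. Counting error is small for the receptors and largest for Spry2, with 170 to 276 reads a library; the spread between libraries limits the rest.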
